A study of Rattus norvegicus with 28 samples.

Results

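The 9 genes described here encode the elongation kinase P-TEFb, proteins that hold it on the 7SK RNA, and the scaffold and elongation subunits of the super elongation complex. They are Cdk9, Ccnt1, Ccnt2, Hexim1, Larp7, Aff1, Aff4, Ell and Ell2. They were chosen by name, for their function, from a table of 30178 genes, and all 9 were found in it. All 9 also passed the filter on low values, at least 1 FPKM in at least 2 libraries, which left 12315 genes for testing. FPKM is a read density per length of gene and per library size, so levels of genes in a library can be set side by side. Between libraries the values can still be shifted as a whole, as given below for TGF-β.

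P-TEFb is the kinase that lets paused RNA polymerase II move on into the gene body: Cdk9, paired with a T-type cyclin, phosphorylates the polymerase tail and the pausing factors NELF and DSIF. Much of it is held inactive on the small nuclear RNA 7SK by Hexim1, with Larp7 protecting the RNA, while the Aff scaffolds gather active P-TEFb with the Ell elongation factors into the super elongation complex at genes that must be transcribed fast. In fibroblasts that turn into matrix-producing cells under transforming growth factor β (TGF-β), this step is studied as a control point of inducible transcription, and the title of the series names P-TEFb after Hoxc8 in the axis it studies.

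RNA was sequenced from NRK-49F cells, an established fibroblast line from rat kidney, as 8 libraries of polyadenylated RNA in 4 groups of 2. One group received TGF-β for 48 h in medium restricted in methionine (MetR, 30 uM methionine, against 200 uM in the matching control medium), one received TGF-β for 48 h and an siRNA that targets Hoxc8, a homeobox gene (siHoxc8), one received TGF-β alone for 48 h, and one was an untreated control. Before treatment the cells were starved for 24 h in 0.2% serum, and TGF-β1 was given at 5 ng per microlitre, as the protocol text states it. The labels name no control siRNA and no medium for the TGF-β and control groups, and are silent on whether replicate libraries were grown separately. The p-values therefore describe the spread among these libraries, which may be technical. A further 20 chromatin immunoprecipitation and input samples are not analysed here.

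Depth was similar across the libraries, with 15118113 to 20146870 reads recovered from the values. Hoxc8 itself stood at 0.417 and 0.614 FPKM with TGF-β and MetR, at 0.463 and 0.0771 FPKM with TGF-β and siHoxc8, at 4.32 and 5.01 FPKM with TGF-β, and at 1.12 and 1.34 FPKM in control, so that it fell with siHoxc8 against TGF-β (log2 change -2.17 ± 0.19 SE, limma adjusted p = 0.000182). Of 8 fibroblast markers in the table, 6 were above 1 FPKM in every library and Thy1 was listed at 0, while the epithelial, endothelial and leukocyte markers each summed to under 3 FPKM in every library, with Epcam and Kdr listed at 0. Fibroblast markers summed to 5913 to 8671 FPKM with MetR, 9983 to 10480 with siHoxc8, 11750 to 12720 with TGF-β and 6973 to 7039 in control, and the 5 epithelial markers to 2.76 to 2.78, 0.425 to 0.440, 0.0487 to 0.150 and 0.534 to 0.718 FPKM in the same groups; the part of either in the results was not tested. The 2 MetR libraries differed more from each other (SD 0.305 on the log2 scale) than those of siHoxc8 (0.186), TGF-β (0.223) or control (0.177). In bulk RNA, fewer cells of a kind and less RNA per cell cannot be told apart. The TGF-β libraries ran low as a whole: over all tested genes the median log2 change was 0.18 for MetR and 0.13 for siHoxc8, both set against TGF-β, and -0.19 for TGF-β against control, and rescaling by median ratios brought these to -0.001, -0.007 and 0. Values below are as deposited unless a rescaled value is named.

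Promoters were read for 7 of the 9 genes from the RefSeq promoter table (assembly GRCr8, 250 bases before to 50 after the gene start). Cdk9 and Ell had no entry there, so nothing below on promoters covers them. All 7 were richer in G and C (60.0% to 80.7%) than the median promoter (51.7% of 33469), and all 7 held at least 1 GC box, spelled GGGCGG and found in 33.1% of all promoters of the same length on either strand. Those of Hexim1, Aff1 and Ccnt2, which rose with MetR against TGF-β, and of Ell2, which fell, are shown 5′ to 3′ on the strand of the gene, with capitals marking matches on either strand to the GC box, to CCAAT (37.5% of promoters), to the Smad element CAGACA (21.1%) or to the cyclic AMP response element TGACGTCA (1.83%); longer runs of capitals are matches that overlap or touch.
Hexim1: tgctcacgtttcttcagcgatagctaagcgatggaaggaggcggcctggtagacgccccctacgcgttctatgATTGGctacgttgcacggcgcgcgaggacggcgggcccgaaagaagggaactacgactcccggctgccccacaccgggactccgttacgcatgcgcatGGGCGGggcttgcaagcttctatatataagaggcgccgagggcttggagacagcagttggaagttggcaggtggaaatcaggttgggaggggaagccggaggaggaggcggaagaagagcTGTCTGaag
Aff1: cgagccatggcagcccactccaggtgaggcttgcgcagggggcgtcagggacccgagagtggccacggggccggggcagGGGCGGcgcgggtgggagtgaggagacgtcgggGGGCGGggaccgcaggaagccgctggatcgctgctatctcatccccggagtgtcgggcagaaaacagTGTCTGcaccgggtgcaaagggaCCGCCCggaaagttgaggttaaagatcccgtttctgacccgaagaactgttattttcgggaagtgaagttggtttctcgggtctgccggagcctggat
Ccnt2: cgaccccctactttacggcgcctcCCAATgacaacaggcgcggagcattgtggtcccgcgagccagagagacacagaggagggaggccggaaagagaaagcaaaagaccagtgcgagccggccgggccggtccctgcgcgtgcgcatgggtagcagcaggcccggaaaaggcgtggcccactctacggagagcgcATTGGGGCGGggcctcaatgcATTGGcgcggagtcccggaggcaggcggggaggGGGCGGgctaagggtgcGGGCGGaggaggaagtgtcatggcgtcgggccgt
Ell2: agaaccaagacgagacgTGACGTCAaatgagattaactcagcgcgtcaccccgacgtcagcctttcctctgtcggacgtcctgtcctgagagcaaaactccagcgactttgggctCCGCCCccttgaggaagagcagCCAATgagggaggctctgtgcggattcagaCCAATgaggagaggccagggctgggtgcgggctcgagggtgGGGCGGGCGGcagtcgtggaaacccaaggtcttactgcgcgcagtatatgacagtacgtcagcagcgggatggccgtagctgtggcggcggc
These lie at chr10:88562639-88562938 on the plus strand for Hexim1, chr14:6268564-6268863 on the minus strand for Aff1, chr13:41803796-41804095 on the plus strand for Ccnt2, and chr2:6921602-6921901 on the plus strand for Ell2. Ccnt2, Aff1 and Ell2 had 3 GC boxes each and Hexim1 had 1. Smad elements were found once each in Hexim1 and Aff1, and also in Ccnt1, and were absent from these windows in Ccnt2, Larp7, Aff4 and Ell2. TGACGTCA occurred once in Ell2 and once in Larp7, and an E-box, CACGTG (6.42% of promoters), once in Aff4 alone of the 7. None of the 7 windows held TGATGNAAT, the core of the amino acid response element (1.09% of promoters), the homeodomain core TAATTA (5.36%) or TATAAA (14.2%). A match is a run of letters in a window and nothing more.

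In outline, the genes of the set did not move as 1 block. With MetR added to TGF-β, Cdk9, Hexim1, Aff1, Ell and Ccnt2 rose and Ell2 fell. With siHoxc8 added to TGF-β, Larp7 and Aff1 rose and Ell and Ell2 fell, and Cdk9 did not pass the test. TGF-β alone lowered Ccnt2 and Larp7. Among these calls, the alternative settings ended the siHoxc8 calls of Aff1 (9 of 17 alternatives), Larp7 (6) and Ell (4), the MetR call of Ccnt2 (3) and the TGF-β call of Larp7 (9), and Ell2 alone held in all 17 with siHoxc8. The plot of levels in each library shows the 9 genes side by side.

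**Figure D1:**
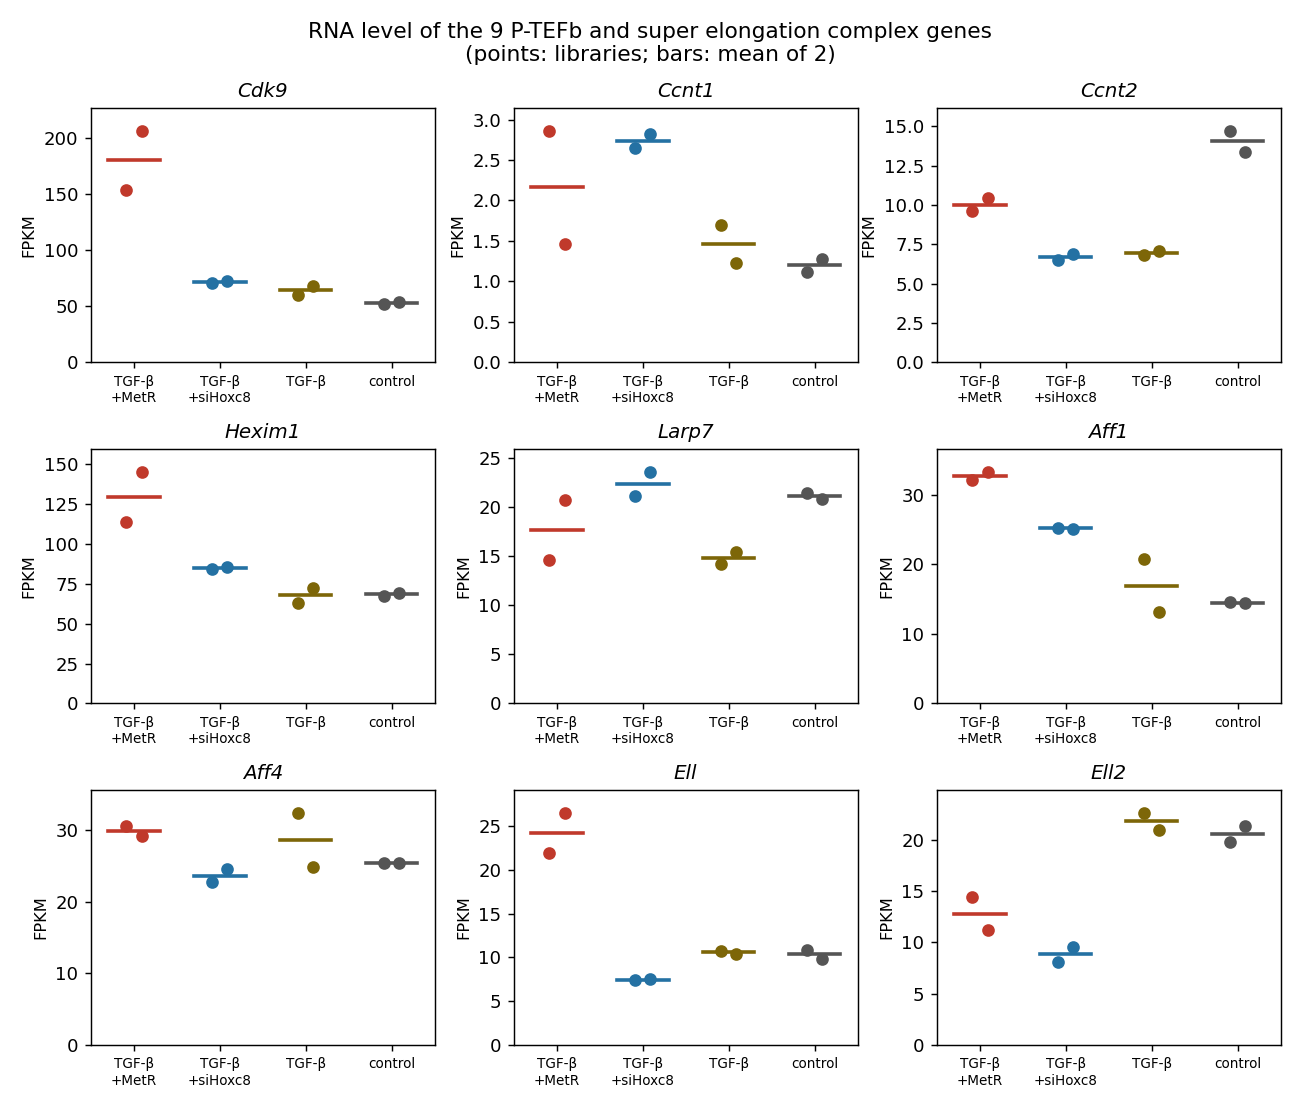
FPKM of each of the 9 genes (y axis, starting at 0) in each library, by group; points are libraries and bars the mean of 2. Cdk9, Hexim1 and Ell are highest in both TGF-β with MetR libraries, Ell2 is lowest with siHoxc8, and Ccnt2 is highest in control.

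Cdk9, the kinase itself, was among the most abundant transcripts of the set: its mean over all libraries, 92.0 FPKM, was above that of 92.5% of tested genes. It stood at 153 and 206 FPKM with TGF-β and MetR, 70.8 and 72.7 FPKM with TGF-β and siHoxc8, 59.9 and 68.2 FPKM with TGF-β, and 52.1 and 53.2 FPKM in control. The 2 MetR libraries were well above the other 6, which lay within a narrow band, although the 2 differed between themselves by 29.4% of their mean. Cdk9 was 2.80-fold higher with TGF-β and MetR (179.7 ± 37.4 FPKM, SD, n = 2) than with TGF-β alone (64.1 ± 5.87 FPKM, n = 2), a log2 change of 1.46 ± 0.14 (limma, adjusted p = 0.000252), or 1.28 above the median of all genes, and its rank by size of rise was 442 of 12315 tested genes. Against control the MetR change was 1.74 ± 0.14 (limma adjusted p = 7.26e-05), and against siHoxc8 it was 1.30 ± 0.14 (adjusted p = 0.000288). All 3 of these calls held in each of the 17 alternatives.

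For TGF-β with siHoxc8 against TGF-β, the Cdk9 change was 0.16, with a 95% interval of -0.17 to 0.50 (limma adjusted p = 0.390). For TGF-β against control it was 0.28, interval -0.060 to 0.61 (adjusted p = 0.167). TGF-β against control passed the test in some settings, at 0.49 after median ratio rescaling (adjusted p = 0.0209) and at an unaltered 0.28 without MetR replicate 1 (adjusted p = 0.0263) or MetR replicate 2 (adjusted p = 0.0264). Between siHoxc8 and control Cdk9 differed by 0.44 ± 0.14 (adjusted p = 0.0375), a call that ended when unfiltered (adjusted p = 0.0702) and without either control library or either siHoxc8 library (adjusted p between 0.122 and 0.150). In the order of group means, MetR, siHoxc8, TGF-β, control, only MetR and siHoxc8 differed as neighbours.

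Ccnt1 encodes cyclin T1, a partner of Cdk9, and was the least abundant gene of the set, with a mean above that of only 12.3% of tested genes. It stood at 2.86 and 1.46 FPKM with TGF-β and MetR, from 115 and 51 reads, at 2.65 and 2.82 FPKM with TGF-β and siHoxc8, from 80 and 102 reads, at 1.70 and 1.22 FPKM with TGF-β, from 55 and 40 reads, and at 1.12 and 1.27 FPKM in control, from 40 and 45 reads. Both siHoxc8 libraries were above both TGF-β and both control libraries, while the 2 MetR libraries were far apart and spanned almost the whole range. Against control, siHoxc8 gave a rise of 0.77 ± 0.22 (limma adjusted p = 0.0247), which ended when the table was left unfiltered (adjusted p = 0.0566) and without either control library or either siHoxc8 library (adjusted p between 0.0791 and 0.111). Against TGF-β, siHoxc8 gave 0.61, interval 0.083 to 1.13 (adjusted p = 0.0617), which passed once MetR replicate 1 (adjusted p = 0.0128) or MetR replicate 2 (adjusted p = 0.0122) was left out of the shared spread. The MetR change against TGF-β was 0.33 ± 0.22 (adjusted p = 0.248) and rested on MetR replicate 1: without replicate 2 it was 0.66 (adjusted p = 0.0208). Likewise the MetR change against control was 0.49 (adjusted p = 0.0969), and 0.82 (adjusted p = 0.00842) without MetR replicate 2, and against siHoxc8 it was -0.28 (adjusted p = 0.329), and -0.60 (adjusted p = 0.0264) without MetR replicate 1. No neighbours in the order siHoxc8, MetR, TGF-β, control differed beyond their spread.

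Ccnt2 encodes cyclin T2, the alternative partner. It stood at 9.58 and 10.4 FPKM with TGF-β and MetR, 6.49 and 6.88 FPKM with TGF-β and siHoxc8, 6.84 and 7.07 FPKM with TGF-β, and 14.7 and 13.4 FPKM in control. Control was highest, MetR intermediate, and the other 2 groups overlapped at the bottom. With TGF-β alone it fell to 6.95 ± 0.160 FPKM, against 14.0 ± 0.965 FPKM in control (n = 2 each), a log2 change of -0.92 ± 0.11 (limma adjusted p = 0.000775) that held in each of the 17 alternatives. With MetR added it was 0.47 ± 0.11 higher than with TGF-β (adjusted p = 0.00860), a rise of 0.28 (adjusted p = 0.0526) after median ratio rescaling and 0.23 (adjusted p = 0.0890) after quantile normalization. Even so, MetR left it 0.45 ± 0.11 below control (adjusted p = 0.00908; -0.39, adjusted p = 0.0844, without control replicate 1). With siHoxc8 the change from TGF-β was -0.050, interval -0.30 to 0.20, and from control -0.97 ± 0.11 (adjusted p = 0.000388). MetR was above siHoxc8 by 0.52 ± 0.11 (adjusted p = 0.00544; 0.48, adjusted p = 0.0503, without siHoxc8 replicate 1).

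Hexim1, which binds 7SK and then inhibits the kinase, was about as abundant as Cdk9. It stood at 113 and 145 FPKM with TGF-β and MetR, 84.2 and 85.4 FPKM with TGF-β and siHoxc8, 63.0 and 72.6 FPKM with TGF-β, and 67.2 and 69.3 FPKM in control. The MetR libraries were highest and the siHoxc8 libraries next, while TGF-β and control overlapped. MetR gave 129 ± 22.3 FPKM, 1.91-fold the 67.8 ± 6.82 FPKM with TGF-β (n = 2 each), a log2 change of 0.91 ± 0.13 (limma adjusted p = 0.00112), and it was higher than siHoxc8 by 0.59 ± 0.13 (adjusted p = 0.00714) and than control by 0.90 ± 0.13 (adjusted p = 0.000891). These 3 calls held in each of the 17 alternatives. Against TGF-β, siHoxc8 gave 0.32, interval 0.014 to 0.63 (adjusted p = 0.0840), and against control 0.31, interval 0.0005 to 0.62 (adjusted p = 0.0894). Both passed without MetR replicate 1 or replicate 2, with an adjusted p of 0.0162 against TGF-β and of 0.0176 against control. Between TGF-β and control the change was -0.014, interval -0.32 to 0.29, and turned to 0.20 after median ratio rescaling.

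Larp7 binds the end of 7SK and keeps the RNA stable. It stood at 14.7 and 20.7 FPKM with TGF-β and MetR, 21.1 and 23.6 FPKM with TGF-β and siHoxc8, 14.3 and 15.4 FPKM with TGF-β, and 21.4 and 20.8 FPKM in control. The siHoxc8 and control libraries shared the upper range, TGF-β the lower, and the 2 MetR libraries took 1 place in each. With siHoxc8 it was 1.51-fold higher than with TGF-β (0.56 ± 0.16, limma adjusted p = 0.0235), and without any 1 of the TGF-β or siHoxc8 libraries the change was 0.48 to 0.63 (adjusted p between 0.0655 and 0.132), while median ratio rescaling gave 0.40 (adjusted p = 0.0531). With TGF-β it was lower than in control (-0.48 ± 0.16, adjusted p = 0.0447). That call was lost after median ratio rescaling (-0.27, adjusted p = 0.173), after quantile normalization (-0.29, adjusted p = 0.143), without any 1 of the TGF-β or control libraries (adjusted p between 0.105 and 0.179) and without siHoxc8 replicate 1 (adjusted p = 0.0723) or replicate 2 (adjusted p = 0.0724). For MetR against TGF-β the change was 0.22, interval -0.15 to 0.59 (adjusted p = 0.271), and it hung on which MetR library was used: it was 0.46 (adjusted p = 0.00941) without replicate 1 and -0.015 without replicate 2, and -0.045 after quantile normalization. Without MetR replicate 2, MetR also differed from siHoxc8 (-0.57, adjusted p = 0.00442) and from control (-0.50, adjusted p = 0.00751), neither of which passed with both libraries (-0.34 and -0.26, adjusted p = 0.105 and 0.190).

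Aff1 and Aff4 are scaffolds that tie P-TEFb to the elongation factors. Aff1 stood at 32.1 and 33.2 FPKM with TGF-β and MetR, 25.3 and 25.0 FPKM with TGF-β and siHoxc8, 20.7 and 13.1 FPKM with TGF-β, and 14.6 and 14.4 FPKM in control. The groups formed steps, with MetR above siHoxc8 and siHoxc8 above both TGF-β libraries, and the 2 TGF-β libraries lay either side of control. MetR gave 32.7 ± 0.778 FPKM, against 16.9 ± 5.37 FPKM with TGF-β (n = 2 each), a log2 change of 0.94 ± 0.18 (limma adjusted p = 0.00390), and 1.12 ± 0.18 against control (adjusted p = 0.00147), calls that held in each of the 17 alternatives. For siHoxc8 the change was 0.58 ± 0.18 against TGF-β (adjusted p = 0.0361) and 0.76 ± 0.18 against control (adjusted p = 0.0114). The change against TGF-β was 0.27 (adjusted p = 0.0822) without TGF-β replicate 2, 0.42 (adjusted p = 0.107) after median ratio rescaling, and lost at an adjusted p between 0.0643 and 0.133 without either control or either siHoxc8 library. The change against control was lost without either control or either siHoxc8 library (adjusted p between 0.0543 and 0.0600). MetR and siHoxc8 differed by 0.37 (adjusted p = 0.127), which passed without TGF-β replicate 1 (adjusted p = 0.0116) or replicate 2 (adjusted p = 0.0112). TGF-β and control differed by 0.18, interval -0.25 to 0.60 (adjusted p = 0.471), a value that rested on the discordant TGF-β pair: 0.49 (adjusted p = 0.0181) without TGF-β replicate 2 and -0.13 without replicate 1. An antisense gene, Aff1-as1, was listed at 0 in all 8 libraries; the strand setting of the counting is not given in the sources used here.

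Aff4 had the smallest range of the 9, its highest group mean being 1.27-fold its lowest. It stood at 30.6 and 29.2 FPKM with TGF-β and MetR, 22.7 and 24.6 FPKM with TGF-β and siHoxc8, 32.4 and 24.8 FPKM with TGF-β, and 25.5 and 25.4 FPKM in control. TGF-β replicate 1 held the highest value and replicate 2 one near control. None of the 6 comparisons passed the test: against TGF-β the limma change was 0.076, interval -0.23 to 0.38, for MetR and -0.25, interval -0.56 to 0.056, for siHoxc8, and TGF-β differed from control by 0.15, interval -0.16 to 0.46. The MetR value turned to -0.13 after median ratio rescaling and -0.14 after quantile normalization. The siHoxc8 value was -0.41 (adjusted p = 0.0445) after median ratio rescaling and -0.44 (adjusted p = 0.0246) without TGF-β replicate 2. MetR and siHoxc8 differed by 0.33 (adjusted p = 0.0690), which passed without TGF-β replicate 1 (adjusted p = 0.0214) or replicate 2 (adjusted p = 0.0210).

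Ell and Ell2 encode alternative elongation factors of the complex, which speed up the polymerase. Ell stood at 21.9 and 26.5 FPKM with TGF-β and MetR, 7.42 and 7.51 FPKM with TGF-β and siHoxc8, 10.8 and 10.4 FPKM with TGF-β, and 10.9 and 9.82 FPKM in control. Both MetR libraries were above all others, both siHoxc8 libraries were below all others, and TGF-β and control overlapped. MetR gave 24.2 ± 3.25 FPKM, 2.29-fold the 10.6 ± 0.289 FPKM with TGF-β (n = 2 each), a log2 change of 1.12 ± 0.12 (limma adjusted p = 0.000347), and siHoxc8 gave 7.47 ± 0.0679 FPKM, a change of -0.45 ± 0.12 (adjusted p = 0.0192). The MetR call held in each of the 17 alternatives, and the siHoxc8 call was lost without any 1 of the TGF-β or siHoxc8 libraries (-0.43 to -0.48, adjusted p between 0.0555 and 0.102). Set directly against each other, MetR was 3.24-fold higher than siHoxc8 (1.57 ± 0.12, adjusted p = 6.48e-05), the largest difference of the set between those groups. Against control, MetR gave 1.15 ± 0.12 (adjusted p = 0.000196) and siHoxc8 -0.42 ± 0.12 (adjusted p = 0.0228), a fall that was lost without any 1 of the control or siHoxc8 libraries (adjusted p between 0.0649 and 0.149). TGF-β and control differed by 0.031, interval -0.25 to 0.31.

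Ell2 stood at 14.4 and 11.2 FPKM with TGF-β and MetR, 8.08 and 9.57 FPKM with TGF-β and siHoxc8, 22.6 and 21.0 FPKM with TGF-β, and 19.9 and 21.4 FPKM in control. Here the TGF-β and control libraries were high and overlapped, and both added treatments were low, without overlap between them. Against TGF-β (21.8 ± 1.13 FPKM) it fell with siHoxc8 to 8.83 ± 1.06 FPKM (-1.22 ± 0.14, limma adjusted p = 0.000581) and with MetR to 12.8 ± 2.29 FPKM (-0.73 ± 0.14, adjusted p = 0.00397; n = 2 each). Against control it fell by 1.14 and by 0.66 on the log2 scale (adjusted p = 0.000637 and 0.00575, siHoxc8 first). These 4 calls held in each of the 17 alternatives. MetR and siHoxc8 differed by 0.48 ± 0.14 (adjusted p = 0.0227), a call lost without MetR replicate 1 (0.31, adjusted p = 0.0686) or siHoxc8 replicate 1 (0.38, adjusted p = 0.149) and after quantile normalization (0.38, adjusted p = 0.0596). Both comparisons against TGF-β use the same TGF-β libraries.

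Counted over the set, MetR against TGF-β gave 5 genes higher and 1 lower of 9, where 34.8% of the 12315 tested genes were called higher and 19.0% lower. The median change of the 9 was 0.47, against 0.18 for all tested genes, and 6 of 9 had groups that did not overlap, against 73.0% of all genes. After median ratio rescaling the set counted 4 higher and 1 lower, and all genes split 3165 higher to 3264 lower in place of 4289 to 2345. In either direction 6 of the 9 were called, against 53.9% of all tested genes.

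With siHoxc8 against TGF-β, 2 genes were higher and 2 lower, where 28.1% of tested genes were called higher and 15.7% lower (43.8% in all), the median of the 9 was 0.16, against 0.13 for all genes, and 8 of 9 did not overlap, against 76.8%. After median ratio rescaling none was higher and 3 were lower (Ell, Ell2 and Aff4), and all genes split 2591 higher to 2718 lower in place of 3460 to 1934. For TGF-β against control, 0 were higher and 2 lower, where 10.3% were called higher and 28.6% lower (38.9% in all), the median of the 9 was 0.078, against -0.19, and 3 of 9 did not overlap, against 75.7%. After rescaling 1 was higher (Cdk9) and 1 lower (Ccnt2), and all genes split 2274 higher to 2140 lower in place of 1269 to 3523.

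Between both added treatments, MetR was higher than siHoxc8 for 5 of the 9 (Cdk9, Ccnt2, Hexim1, Ell and Ell2) and lower for 0, where 29.3% of tested genes were called higher and 24.9% lower (54.2% in all), and 8 of 9 did not overlap, against 77.0%. Against control, MetR gave 4 higher and 2 lower, where 28.0% were called higher and 29.3% lower (57.3% in all), and all 9 did not overlap, against 79.1%. The same comparison for siHoxc8 gave 3 higher and 3 lower, where 21.7% were called higher and 27.0% lower (48.7% in all), and 8 of 9 did not overlap, against 84.0%. With no filter on low values, siHoxc8 against control gave 1 higher and 3 lower. Without any 1 of the control or siHoxc8 libraries, the calls of Cdk9, Ccnt1, Aff1 and Ell in this comparison were lost, as given above. Fewer of all tested genes were called in those fits as well. For all genes, siHoxc8 against control with no filter split 2589 higher to 3316 lower of 19435. Over the 6 comparisons 29 of 54 gene results of the set were called, where a single comparison called 38.9% to 57.3% of all tested genes. Of the 29, 17 were called in every one of the 17 alternatives, and 0 reversed. The 6 comparisons are drawn from the same 4 groups, so these results overlap.

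**Figure D2:**
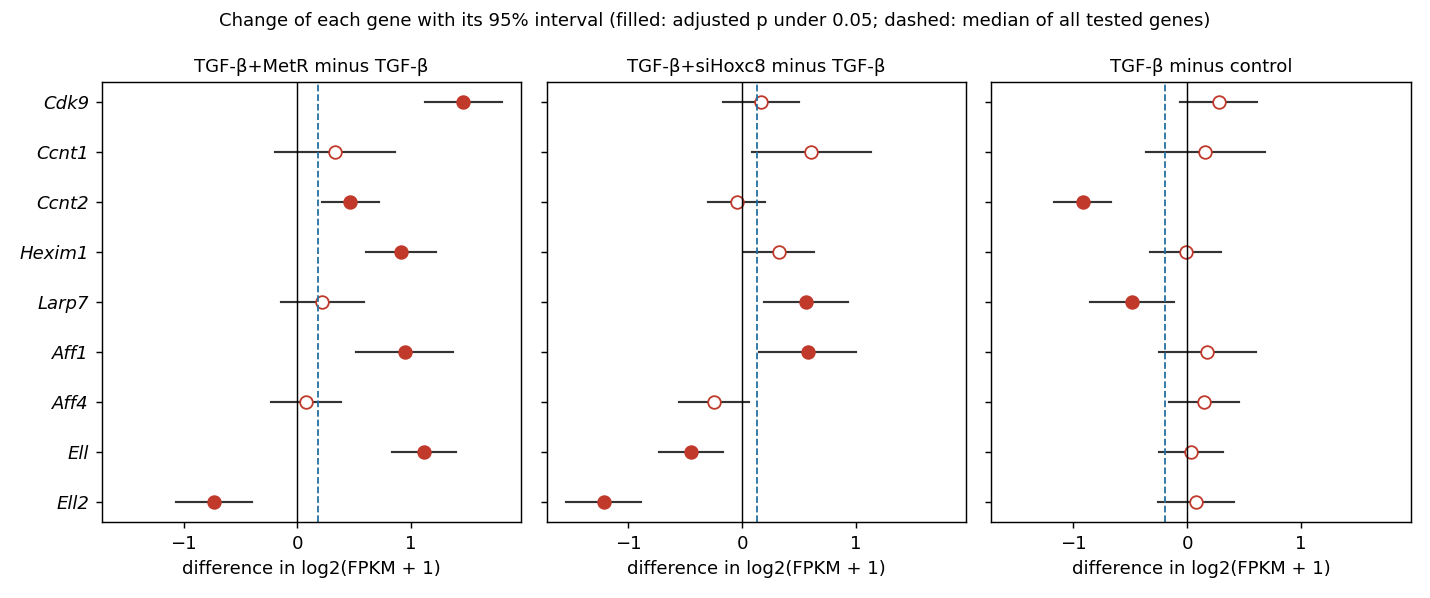
Difference in log2(FPKM + 1) with its 95% interval from limma (x axis) for each gene, with MetR and with siHoxc8 set against TGF-β, and with TGF-β set against control. Filled points have an adjusted p under 0.05 and the dashed line is the median of all tested genes; Cdk9 and Ell stand farthest right with MetR (1.46 and 1.12) and Ell2 farthest left with siHoxc8 (-1.22).

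Several members do alternative jobs, and their balance within a library is free of scaling between libraries. The log2 ratio of Ell to Ell2 was 0.60 and 1.25 with TGF-β and MetR, -0.12 and -0.35 with TGF-β and siHoxc8, -1.07 and -1.02 with TGF-β, and -0.87 and -1.12 in control. Ell was thus the more abundant with MetR, and Ell2 in the other 3 groups. Aff1 over Aff4 was 0.069 and 0.19 with MetR, 0.15 and 0.025 with siHoxc8, -0.64 and -0.92 with TGF-β, and -0.81 and -0.82 in control, so both added treatments lay near parity and TGF-β and control both below it. Ccnt1 made up 23.0% and 12.3% of the summed cyclin T FPKM with MetR, 29.0% and 29.1% with siHoxc8, 19.9% and 14.8% with TGF-β, and 7.07% and 8.70% in control. Control was lowest, siHoxc8 highest, and Ccnt2 was the more abundant cyclin in every library. The log2 ratio of Cdk9 to its inhibitor Hexim1 was 0.43 and 0.51 with MetR, -0.25 and -0.23 with siHoxc8, -0.072 and -0.090 with TGF-β, and -0.37 and -0.38 in control, so Cdk9 was above Hexim1 in the MetR libraries alone. With 2 libraries a group these ratios are given as a description, with no test.

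**Figure D3:**
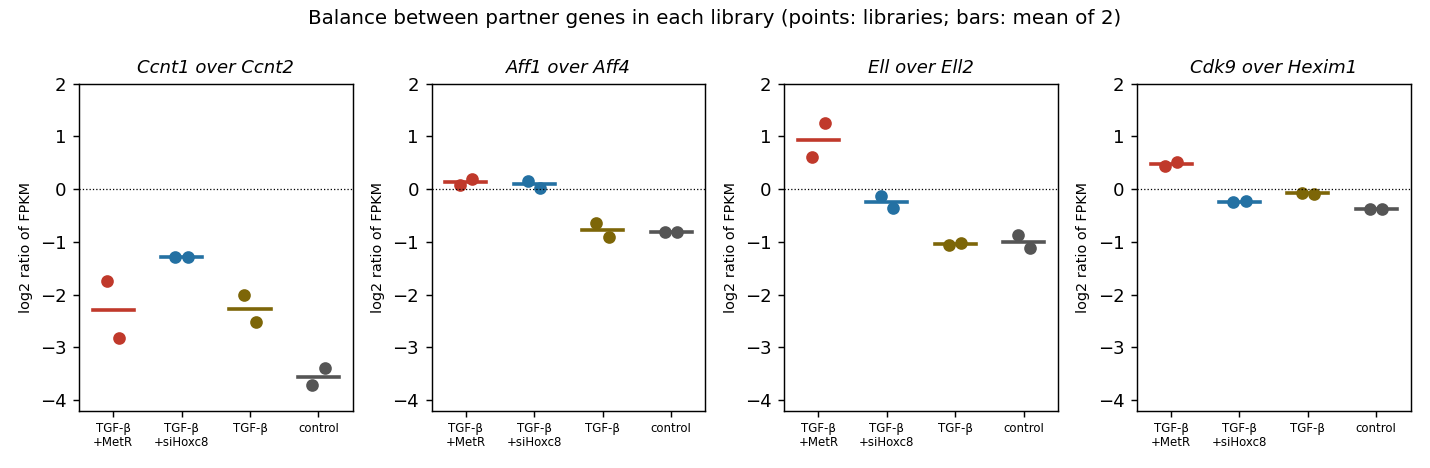
Log2 ratio of FPKM between partner genes within each library (y axis), by group; points are libraries, bars the mean of 2 and the dotted line equal FPKM. Ell over Ell2 and Cdk9 over Hexim1 are above 0 in the TGF-β with MetR libraries alone.

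Across the 8 libraries, Cdk9 and Hexim1 followed each other most closely among the pairs of members (Pearson r = 0.970 of log2(FPKM + 1)), followed by Cdk9 and Ell (0.867), while Ell2 ran against Ccnt1 (-0.715) and Aff1 (-0.711). Over the whole table, the genes most like Cdk9 were Irf2bp2 (r = 0.998), Pim3 (0.995) and Il18rap (0.994). Abt1, Gtf2h5 and Zfp593 (0.996 each) were most like Hexim1, Agk, Fam160a2 and Ubap1 (0.993 to 0.994) most like Ell, and Id2 (0.990), Anxa8 (0.987) and Hspb2 (0.986) most like Ell2. Ccnt2 had Dtx3l (0.997), Tmem106a (0.991) and Serpinb1a (0.988), Larp7 had Pafah1b1 (0.986), Bora (0.982) and Nadk2 (0.978), and Aff1 had Gna11 (0.983), Zdhhc5 (0.982) and Nt5dc3 (0.978). The closest to Ccnt1 were Col5a3, Tmem86a (both 0.970) and Adgra2 (0.967), and the closest to Aff4 were Prrg4 (0.928), Ankrd50 (0.926) and Mapk8ip3 (0.910). The 8 points share 4 groups, so these values describe a common profile over groups.

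Around these 9 genes, 39 further genes of pause release were tested of 44 listed in 6 groups (Cdk8 and Brd2 were not matched in the table, and Mepce, Aff3 and Eaf2 were under the filter). MetR against TGF-β gave 19 higher and 5 lower (48.7% and 12.8% of the 39, against 34.8% and 19.0% of all tested genes). With siHoxc8 against TGF-β 17 were higher and 4 lower (43.6% and 10.3%, against 28.1% and 15.7%). For TGF-β against control 2 were higher and 12 lower (5.13% and 30.8%, against 10.3% and 28.6%), so the share that fell was near that of all genes. After median ratio rescaling the counts were 14 and 8 (35.9% and 20.5%, against 25.7% and 26.5% of all genes) with MetR, 13 and 5 (33.3% and 12.8%, against 21.0% and 22.1%) with siHoxc8, and 6 and 9 (15.4% and 23.1%, against 18.5% and 17.4%) with TGF-β. Of the 110 calls of these genes over the 6 comparisons, 96 were still called after median ratio rescaling and 93 after quantile normalization, and 52 held in every alternative. The groups below are small, and their counts are to be read against the same shares of all genes.

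Other 7SK and super elongation complex genes, 6 tested, had 4 higher and 0 lower with MetR against TGF-β (median 0.58): the scaffold Aff2 (0.97 ± 0.14), the chromatin readers Mllt1 (0.81 ± 0.10) and Mllt3 (0.35 ± 0.11) and the second 7SK inhibitor Hexim2 (0.81 ± 0.16). Mllt3 was at 0.15 (adjusted p = 0.272) after median ratio rescaling and was called in 7 of 17 alternatives. With siHoxc8 2 were higher, Aff2 (0.98 ± 0.14) and Ell3 (0.63 ± 0.18; 0.51, adjusted p = 0.0561, after median ratio rescaling and lost in 6 of 16 alternatives), and 1 lower, the Ell partner Eaf1 (2.098-fold lower, limma adjusted p = 0.00290). Eaf1 stood at 22.1 and 32.8 FPKM with MetR, 10.0 and 11.0 FPKM with siHoxc8, 22.3 and 21.8 FPKM with TGF-β, and 15.9 and 15.2 FPKM in control, lowest in both siHoxc8 libraries as Ell was. With TGF-β against control 0 were higher and 1 lower, Aff2 (-0.82 ± 0.14).

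All 3 subunits of the little elongation complex, which brings Ell to small nuclear RNA genes, rose with MetR against TGF-β: Zc3h8 by 1.25 ± 0.24, Ice2 by 1.08 ± 0.20 and Ice1 by 0.97 ± 0.14 on the log2 scale (limma adjusted p = 0.00398, 0.00328 and 0.00116), and all 3 kept the call after median ratio rescaling and without either MetR library. With siHoxc8 1 rose, Ice2 (0.70 ± 0.20), a call lost after quantile normalization (0.51, adjusted p = 0.0708), in the unfiltered table (adjusted p = 0.0669) and without any 1 of the TGF-β or siHoxc8 libraries (adjusted p between 0.0664 and 0.135), and with TGF-β against control 0 of 3 passed (median -0.55). Ice1 stood at 25.6 and 24.7 FPKM with MetR, 11.2 and 11.9 FPKM with siHoxc8, 14.4 and 10.5 FPKM with TGF-β, and 15.9 and 15.6 FPKM in control, so both MetR libraries were above all others.

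Among 8 other kinases and cyclins of the polymerase tail, 3 were higher and 2 lower with MetR against TGF-β, 3 higher and 1 lower with siHoxc8 against TGF-β, and 1 higher and 2 lower with TGF-β against control. Cdk13, an elongation kinase, gave 0.81 ± 0.11 with MetR and 0.43 ± 0.11 with siHoxc8 against TGF-β, and -0.56 ± 0.11 with TGF-β against control. Cdk7, the initiation kinase of TFIIH, went the other way in each: -0.61 ± 0.10, -0.53 ± 0.10 and 0.44 ± 0.10, and its assembly partner Mnat1 fell with MetR (-0.52 ± 0.14). The kinase Cdk19 of Mediator was higher with MetR (0.53 ± 0.09) and lower with TGF-β (-0.47 ± 0.09). After median ratio rescaling the siHoxc8 count of this group was 0 higher and 1 lower, Cdk13 being at 0.28 (adjusted p = 0.0685), a call lost in 5 of 17 alternatives. The TGF-β calls of Cdk7, Cdk13 and Cdk19 were lost without either control library (adjusted p between 0.0520 and 0.113), that of Cdk7 also without TGF-β replicate 2 (0.36, adjusted p = 0.0648), and the MetR call of Mnat1 without TGF-β replicate 2 (-0.39, adjusted p = 0.0964).

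The 8 tested recruiters and releasers of P-TEFb counted 4 higher and 1 lower with MetR, 5 higher and 0 lower with siHoxc8, both against TGF-β, and 1 higher and 3 lower with TGF-β against control. Zmynd8, a reader that binds P-TEFb in human cells, stood at 20.8 and 16.4 FPKM with MetR, 26.4 and 23.2 FPKM with siHoxc8, 7.92 and 7.97 FPKM with TGF-β, and 15.9 and 14.3 FPKM in control. Its changes were 1.12 ± 0.14, 1.53 ± 0.14 and -0.85 ± 0.14 (limma adjusted p = 0.000548, 0.000187 and 0.00282), in every one of the 17 alternatives. Jmjd6, a lysyl hydroxylase, rose with MetR (1.07 ± 0.19) and with TGF-β against control (0.72 ± 0.19). The splicing factor Srsf2 (0.82 ± 0.10) and the phosphatase Ppm1g (0.68 ± 0.17), both known to release P-TEFb from 7SK, rose with siHoxc8, the Ppm1g call being lost without TGF-β replicate 1 or either siHoxc8 library (adjusted p between 0.0665 and 0.0851). The TGF-β call of Jmjd6 was lost without any 1 of the TGF-β or control libraries (adjusted p between 0.0718 and 0.101). Trim28 passed at -0.26 ± 0.09 with MetR, a call lost in 7 of 17 alternatives (-0.19, adjusted p = 0.114, without TGF-β replicate 2).

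Of 7 genes listed for the phosphatases of the polymerase tail, 4 fell and 0 rose with TGF-β against control. Those that fell were the small phosphatases Ctdspl (-1.57 ± 0.13), Ctdsp2 (-1.37 ± 0.20) and Ctdsp1 (-0.71 ± 0.09) and the scaffold Rprd1b (-0.58 ± 0.12). The count was 4 also after median ratio rescaling, where 28.6% of all tested genes were called lower as deposited and 17.4% rescaled. Rprd1b was lost without control replicate 1 (-0.53, adjusted p = 0.0691) and after quantile normalization (-0.29, adjusted p = 0.0790). Ctdspl stood at 5.72 and 5.11 FPKM with MetR, 7.90 and 7.44 FPKM with siHoxc8, 5.21 and 4.26 FPKM with TGF-β, and 16.3 and 15.6 FPKM in control, where it was highest. With MetR 3 rose and 1 fell, and with siHoxc8 4 rose and 0 fell, both against TGF-β. Ssu72 was the 1 that differed in direction, at -0.65 ± 0.16 with MetR and 0.81 ± 0.16 with siHoxc8 (limma adjusted p = 0.00983 and 0.00480; with MetR -0.52, adjusted p = 0.0668, without TGF-β replicate 2).

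Among the 7 pausing factors and the polymerase subunit that P-TEFb phosphorylates, 2 rose and 1 fell with MetR, 2 rose and 2 fell with siHoxc8, both against TGF-β, and 0 rose and 2 fell with TGF-β against control. After median ratio rescaling both rises with MetR lost their call (Nelfa 0.15 and Nelfb 0.19, limma adjusted p = 0.2585 and 0.107). The DSIF gene Supt5h was then called lower with MetR (-0.31, adjusted p = 0.0159). Of the falls with TGF-β, that of Polr2a was lost on rescaling (-0.47, adjusted p = 0.0821) and that of Nelfcd was kept (-0.62, adjusted p = 0.00599). Polr2a, the largest subunit of RNA polymerase II, stood at 25.2 and 18.9 FPKM with MetR, 64.3 and 61.7 FPKM with siHoxc8, 42.7 and 32.2 FPKM with TGF-β, and 60.1 and 60.3 FPKM in control. It was lowest in both MetR libraries (-0.74 ± 0.17 against TGF-β, limma adjusted p = 0.00777) and higher with siHoxc8 (0.75 ± 0.17, adjusted p = 0.00947), the siHoxc8 call being lost without TGF-β replicate 2 (0.55, adjusted p = 0.0548) or siHoxc8 replicate 1 (0.72, adjusted p = 0.0588). The NELF subunit gene Nelfa gave 1.00 ± 0.11 with siHoxc8, while Supt5h and Supt4h1, the DSIF subunits, gave -0.43 ± 0.09 and -0.41 ± 0.13. The Supt5h call was lost without either siHoxc8 library (adjusted p = 0.0635 and 0.0507), and that of Supt4h1 in 7 of 17 alternatives (-0.23, adjusted p = 0.124, without TGF-β replicate 2).

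**Figure D4:**
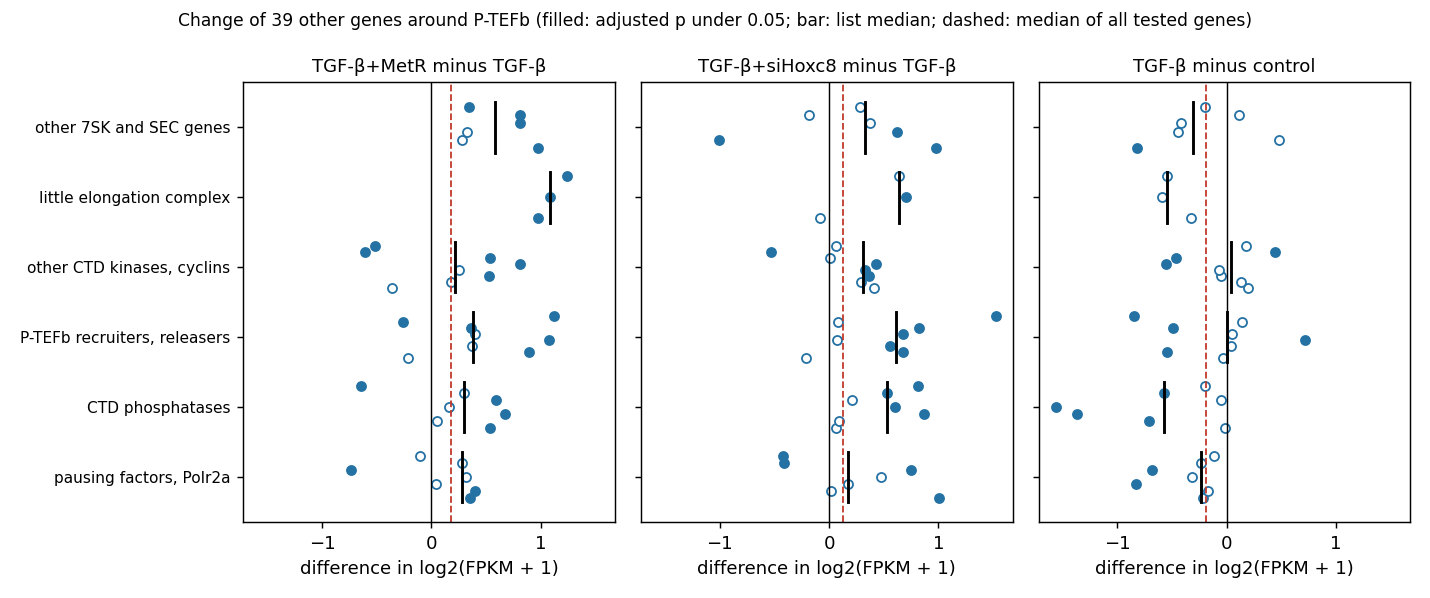
Difference in log2(FPKM + 1) (x axis) of the 39 other tested genes in 6 groups around P-TEFb, for the same 3 comparisons; filled points have an adjusted p under 0.05, black bars are group medians and the dashed line is the median of all tested genes. All 3 little elongation complex genes lie to the right with MetR. All 7 genes of the tail phosphatase group lie to the left of 0 with TGF-β, 4 of them filled, where the dashed line is at -0.19. Of the unfilled, Ctdp1 (-0.012) and Rpap2 (-0.053) lie to the right of that line and Ssu72 (-0.20) is close to it. After median ratio rescaling they were at 0.20, 0.13 and 0.019.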

How the data were processed

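The authors deposited 1 table of FPKM values with gene symbols covering all 8 RNA-seq libraries, as the labels state. The submitters' processing notes name featureCounts, deepTools, Trim Galore and Bowtie2 2.3.5.1, without roles, and the rat build rn6; annotation and strand setting: not given in the sources used here. Depth was recovered from the step between low values of each gene, which gave 15118113 to 20146870 reads per library. Of the 19435 genes that had any value, 100.0% came out whole to within 0.02 reads. A gene with a value in a single library comes out whole in any case, so the share is no check of such genes. The reads are the smallest whole numbers that meet this limit, and can fall short where counts share a factor.

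Groups came from sample titles. Changes are differences of log2(FPKM + 1), which understate those of low genes, fitted with limma 3.58.1 in R 4.3.3 to all 8 libraries, each group having its own coefficient and no covariate entering, with variances moderated along mean expression (4 residual and 3.47 prior degrees of freedom). A gene entered the test if 2 or more libraries had 1 FPKM or more, p-values are two-sided, and adjustment by Benjamini-Hochberg ran over all 12315 within each of 6 comparisons (threshold 0.05). The fit was run on simulated data with planted changes larger than any of the set and the same spread in every group. That run is no check of smaller changes.

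The 17 alternatives were pseudocounts of 0.1 and 0.5, no filter, a mean of at least 5 FPKM, median ratio and quantile scaling, only the groups compared, a replicate block, limma-voom on the recovered reads, and leaving out each of the 8 libraries. Limma-voom was chosen after seeing the data, in place of a planned count test, since the values are FPKM. The members and lists were chosen with earlier results of these data known. All 9 members are named whatever their result, with Hoxc8 as a check, up to 4 genes of each other list by size of change in a comparison (1 gene that the rule names is counted in its list but not reported here), and the 3 genes whose profile is most correlated with each member. Figures were drawn with matplotlib 3.10.9. Promoter letters are from RefSeq (GRCr8), used for these sequences alone.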

Additional observations from a re-analysis of the deposited data

How the results depend on the processing

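Of 54 gene results over the 6 comparisons, 29 were called, where 38.9% to 57.3% of all tested genes were called in a single comparison. Of the 29, 17 were called under all 17 alternatives and 12 were lost under at least 1. Of 25 not called, 15 passed under at least 1. With no filter on low values, the genes of the set called were 1 in place of 2 for TGF-β against control, 2 in place of 4 for siHoxc8 against TGF-β alone, and 4 in place of 6 for siHoxc8 against control. All 19435 genes in that setting split 1127 higher to 3252 lower, 3228 to 1784 and 2589 to 3316 in these comparisons. With the filter, 12315 genes split 1269 to 3523, 3460 to 1934 and 2668 to 3331. The share called therefore fell for all genes as well. Directions turned, among results not called, after median ratio rescaling for Hexim1 in TGF-β against control (0.20) and for Aff4 with MetR against TGF-β (-0.13), and after quantile normalization for Aff4 (-0.14) and Larp7 (-0.045) in the same comparison; the cause was not tested.

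Leaving out 1 library at a time leaves a group with 1 sample, which is then assumed to vary like the others. The genes called ranged from 2320 to 6298 for TGF-β against control (4792 with all), 3152 to 6734 for siHoxc8 against TGF-β (5394) and 3843 to 7200 for siHoxc8 against control (5999). Of the 9 genes, 1 to 3, 1 to 6 and 2 to 7 were called in these comparisons, and 3 to 7 for MetR against siHoxc8. For MetR against siHoxc8, the number called among all tested genes also fell in some of these fits and rose in others. The swing there is therefore not particular to the 9 genes. Results that changed sign on leaving out 1 library spanned, in TGF-β against control, -0.11 to 0.088 for Hexim1, -0.13 to 0.49 for Aff1, -0.037 to 0.34 for Aff4 and -0.036 to 0.10 for Ell. In MetR against TGF-β they spanned -0.015 to 0.46 for Larp7 and -0.11 to 0.26 for Aff4, and in MetR against siHoxc8 -0.60 to 0.048 for Ccnt1.

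A replicate block changed no call of the 9 genes and gave 4750, 6639, 5424, 7044, 6011 and 6685 genes called, in the order TGF-β against control, MetR against TGF-β, siHoxc8 against TGF-β, MetR against control, siHoxc8 against control and MetR against siHoxc8 (4792, 6634, 5394, 7059, 5999 and 6680 without it). The labels do not say that the numbers pair the libraries, and the deviations of same-numbered libraries correlated at -0.02 to 0.20. The planned edgeR test was not run, since the values are FPKM; limma-voom on the recovered reads, added after seeing the data, changed no call of the 9 genes. Ccnt1, at 40 to 115 reads per library, is the gene that depth limits most, and it has no value under the filter on a mean of at least 5 FPKM.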
